A study of Mus musculus with 12 samples.

Results

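Tcf7, Lef1, Id3, Bach2, Foxo1, Satb1, Myb, Foxp1, Bcl6 and Klf3 encode 10 transcription factors linked to quiescence, memory and self-renewal of T cells, and they were picked by gene symbol from a table of 56980 mouse genes. All 10 had a single entry there, and all 10 were among the 20411 genes left by a filter on low counts. In GENCODE M21 (GRCm38) the genes lie on chromosome 11 (Tcf7), 3 (Lef1 and Foxo1), 4 (Id3 and Bach2), 17 (Satb1), 10 (Myb), 6 (Foxp1), 16 (Bcl6) and 5 (Klf3). These 10 genes and the gene lists used below were chosen with earlier results of these data known. Their shares of calls, set beside those of all genes, are therefore descriptive and not a test.

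TCF1 (encoded by Tcf7) and LEF1 bind DNA as partners of beta-catenin or of Groucho co-repressors, and both keep CD8+ T cells in naive and stem-like states. FOXO1 drives genes of quiescence and lymph node homing, while ID3 restrains E proteins. BACH2 and BCL6 are repressors that oppose terminal effector differentiation. In tumours, CD8+ cells rich in TCF1 are known as a pool that can divide and give rise to more exhausted cells.

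Polyadenylated RNA was sequenced from tumour-infiltrating CD8+ T cells of wild-type C57BL/6J mice, sorted as live (DAPI-) CD45.2+ CD8+ cells, with no T cell receptor chain among the sort markers. The 4 groups were asGM1-positive and asGM1-negative cells from Flt3L Panc02 tumours, and asGM1-positive and asGM1-negative cells from Panc02 tumours, with 3 libraries each. Panc02 is a pancreatic cancer line of the mouse, Flt3L Panc02 tumours express the dendritic cell growth factor Flt3L, and asGM1 (asialo-GM1) is a glycosphingolipid of the cell surface. The labels do not say whether libraries of a group came from separate mice, whether Flt3L Panc02 was 1 clone, or how old the mice and tumours were. The p-values below therefore measure the spread between these libraries, which may be technical.

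Library totals ranged from 98663008 to 102896605 counts, and levels are given as CPM, counts scaled to a common library total after TMM normalisation. The least abundant value, 200 counts of Bcl6 in asGM1-positive replicate 3 of Panc02 tumours, stands for about 74 sequenced fragments (95% Poisson interval 58.1 to 92.9), or 2.002 CPM with an interval of 1.57 to 2.51 that covers counting error only. The T cell gene Cd3e lay between 614 and 1412 CPM and Cd8a between 1569 and 2562 CPM over the 12 libraries. Differences are log2 fold changes with their standard error (SE), asGM1-positive over asGM1-negative cells or Flt3L Panc02 over Panc02 tumours, and a gene was called at an edgeR adjusted p under 0.05 over all 20411 genes. In bulk libraries fewer cells of a type and less RNA per cell cannot be told apart.

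The 10 factors were mostly lower in asGM1-positive cells, and their levels were highest in asGM1-negative cells of Flt3L Panc02 tumours. Between the gates of Flt3L Panc02 tumours 8 of the 10 were called lower and 0 higher, where 5.83% of all genes were called lower, 2.77% higher and 8.59% in either direction. Between the gates of Panc02 tumours 2 of the 10 were called lower, Tcf7 and Lef1, where 0.843% of all genes were called lower, 0.049% higher and 0.892% in either direction. Summed over the 10 genes, the level was 423, 479 and 358 CPM in asGM1-positive cells of Flt3L Panc02 tumours, against 765, 1018 and 815 CPM in their asGM1-negative cells. In Panc02 tumours the sum was 317, 296 and 346 CPM in asGM1-positive cells, against 528, 511 and 495 CPM in asGM1-negative cells. The sums of the 2 gates did not overlap in either tumour type. These sums weigh the more abundant genes most. The share of all genes whose gates do not overlap was not computed, so statements on overlap, here and for single genes below, are descriptive.

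**Figure D1:**
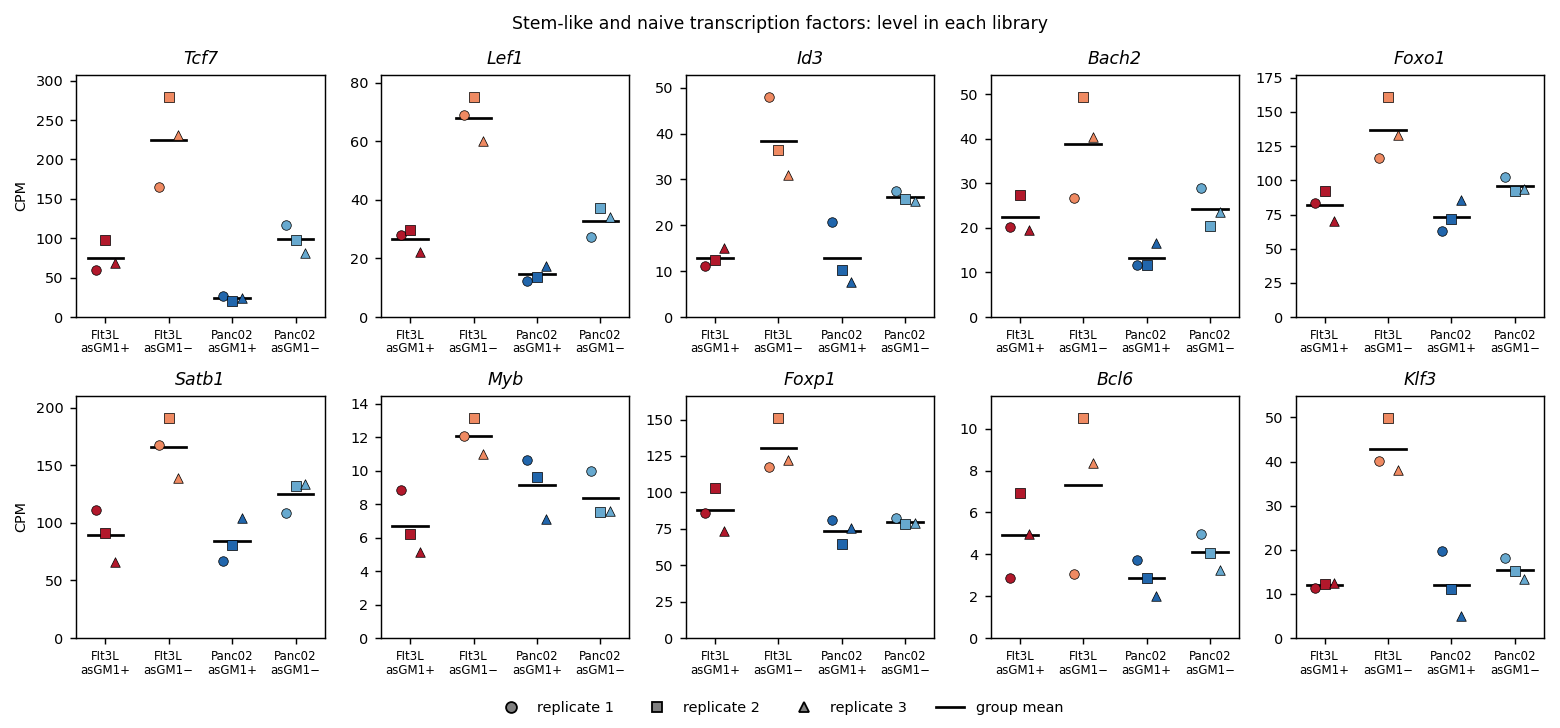
CPM of each of the 10 factors (vertical axes, linear, from 0) in the 12 libraries, with symbols for the replicates and a bar for the group mean. Tcf7 reached 280 CPM in asGM1-negative cells of Flt3L Panc02 tumours and stayed at or under 27.2 CPM in asGM1-positive cells of Panc02 tumours. Myb, less abundant than Tcf7 in every library, lay between 5.13 and 13.2 CPM.

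Tcf7 encodes TCF1, the factor that marks stem-like CD8+ T cells. Its level was 59.5, 97.4 and 68.8 CPM in asGM1-positive cells of Flt3L Panc02 tumours, against 165, 280 and 231 CPM in their asGM1-negative cells. In Panc02 tumours it was 27.2, 19.8 and 24.6 CPM in asGM1-positive cells, against 117, 98.2 and 81.0 CPM in asGM1-negative cells. The gates did not overlap in either tumour type, and the group means fell into the order, from high to low, of Flt3L Panc02 asGM1-negative, Panc02 asGM1-negative, Flt3L Panc02 asGM1-positive and Panc02 asGM1-positive cells. Of these neighbours only the middle pair came close, with 97.4 CPM as the highest asGM1-positive and 81.0 CPM as the lowest asGM1-negative value, an overlap. The gate difference was -1.58 ± 0.23 in Flt3L Panc02 tumours, 2.99-fold lower (adjusted p = 0.00231), and -2.05 ± 0.24 in Panc02 tumours, 4.13-fold lower (adjusted p = 0.00148). Between tumour types Tcf7 was 3.15-fold higher in Flt3L Panc02 tumours among asGM1-positive cells (1.66 ± 0.23, adjusted p = 0.00579) and 2.28-fold higher among asGM1-negative cells (1.19 ± 0.23, adjusted p = 0.0204).

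Lef1 encodes the close relative of TCF1 that shares its DNA motif. Its level was 27.8, 29.8 and 22.3 CPM in asGM1-positive cells of Flt3L Panc02 tumours, against 69.0, 75.2 and 59.9 CPM in their asGM1-negative cells. Libraries of Panc02 tumours had 12.5, 13.6 and 17.5 CPM in asGM1-positive cells, against 27.3, 37.1 and 34.2 CPM in asGM1-negative cells. The group means ran in the same order as those of Tcf7, and here too the middle pair overlapped. Lef1 was 2.55-fold lower in asGM1-positive cells of Flt3L Panc02 tumours (-1.35 ± 0.17, adjusted p = 0.00098) and 2.26-fold lower in those of Panc02 tumours (-1.18 ± 0.17, adjusted p = 0.0062). It was 1.83-fold higher in Flt3L Panc02 tumours among asGM1-positive cells (0.88 ± 0.17, adjusted p = 0.0167) and 2.07-fold higher among asGM1-negative cells (1.05 ± 0.17, adjusted p = 0.00996).

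Tcf7 and Lef1 were the only 2 of the 10 factors called in all of these 4 comparisons, so the sequences before their transcription starts are shown, with that of Foxp1, which held the sole TCF/LEF core among the windows of the 10 genes. The sequences are RefSeq windows on GRCm38.p6, another build than the mm39 of the counts, and are given 5′ to 3′ on the gene's strand. They end at the base before the start, and for Tcf7, which has 2 annotated starts, the 116 bases shown lie before the second one. This places them inside the annotated gene, downstream of the first start. Those 116 bases are the longest stretch of the 250-base window of that start without annotated exon. Lef1 has 4 annotated starts and Foxp1 3, and the windows shown are those of the first and the second in the table. Capitals mark a match to the GC box GGGCGG in Tcf7 and Lef1, and TTCAAAG, the reverse complement of the TCF/LEF core CTTTGAA, in Foxp1.
Tcf7, chr11:52282596-52282711, minus strand: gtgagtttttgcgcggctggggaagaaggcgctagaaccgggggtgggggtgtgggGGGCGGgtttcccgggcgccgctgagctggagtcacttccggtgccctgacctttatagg
Lef1, chr3:131110047-131110296, plus strand: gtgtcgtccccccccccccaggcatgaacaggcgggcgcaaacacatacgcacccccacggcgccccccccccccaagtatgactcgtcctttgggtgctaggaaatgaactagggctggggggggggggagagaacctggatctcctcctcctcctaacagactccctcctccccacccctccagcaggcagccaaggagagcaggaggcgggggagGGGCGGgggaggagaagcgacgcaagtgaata
Foxp1, chr6:99266516-99266765, minus strand: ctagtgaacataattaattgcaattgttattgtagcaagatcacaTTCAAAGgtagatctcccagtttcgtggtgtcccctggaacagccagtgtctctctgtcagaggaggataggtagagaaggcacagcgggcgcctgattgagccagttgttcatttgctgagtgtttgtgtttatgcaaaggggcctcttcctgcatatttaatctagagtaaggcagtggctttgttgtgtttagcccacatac
The GC box begins 60 bases before the start in the Tcf7 sequence and 32 before it in that of Lef1, and the TCF/LEF core begins 205 bases before the start in that of Foxp1.

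The 10 genes had 21 such windows of 250 bases, searched on both strands and set beside all 32817 windows of the table. The TCF/LEF core CTTTGAA was found in 1 of the 21 windows and in 4.46% of all windows, and the core CTTTGAT in 0 of the 21 and 3.21% of all. The forkhead motif GTAAACA was found in 0 of the 21 and 3.16% of all, and the motif TGAGTCA of AP-1 and BACH proteins in 0 of the 21 and 4.46% of all. The E box CAGGTG was found in 2 of the 21, a Satb1 and a Foxp1 window, and in 17.2% of all. The motif TTCCTNGAA, part of the site of BCL6, was found in 1 of the 21, a window of Bcl6 itself, and in 1.31% of all. The GC box GGGCGG, bound by Sp and KLF proteins, was found in 13 of the 21 windows, of 9 of the 10 genes (Bach2 was without), and in 32.7% of all. GGGCGG matches can overlap each other, and windows of 1 gene can overlap too, as those of Lef1 do. Some windows hold annotated exon. All 250 bases of the Id3 window and of Satb1 windows 4 and 5 are untranslated exon in GENCODE M21. So are 169 bases of Foxp1 window 1 and 133 of the Klf3 window, with smaller parts of some others. These Id3, Foxp1 and Klf3 windows are among the 13 with a GC box. Exon of transcripts outside GENCODE M21 was not searched for, so other windows may hold exon too.

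Id3 encodes an inhibitor that pairs with E proteins and keeps them off DNA. Its level was 11.2, 12.4 and 15.1 CPM in asGM1-positive cells of Flt3L Panc02 tumours, against 48.1, 36.4 and 30.9 CPM in their asGM1-negative cells. In Panc02 tumours it was 20.7, 10.3 and 7.63 CPM in asGM1-positive cells, against 27.5, 25.7 and 25.3 CPM in asGM1-negative cells. The gates did not overlap in either tumour type, and Id3 was 2.98-fold lower in asGM1-positive cells of Flt3L Panc02 tumours (-1.58 ± 0.31, adjusted p = 0.0103). In Panc02 tumours the difference was -1.02 ± 0.30 (adjusted p = 0.214), and without asGM1-positive replicate 1, the high library, Id3 was called there (adjusted p = 0.00811). Between tumour types it was 0.00 ± 0.30 among asGM1-positive cells and 0.56 ± 0.30 among asGM1-negative cells (adjusted p = 1 and 0.334).

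Bach2 encodes a repressor that competes with AP-1 and holds back effector differentiation. Its level was 20.2, 27.4 and 19.6 CPM in asGM1-positive cells of Flt3L Panc02 tumours, against 26.7, 49.5 and 40.4 CPM in their asGM1-negative cells. Libraries of Panc02 tumours had 11.8, 11.6 and 16.5 CPM in asGM1-positive cells, against 28.9, 20.3 and 23.5 CPM in asGM1-negative cells. The gates overlapped in Flt3L Panc02 tumours, through asGM1-negative replicate 1, and did not in Panc02 tumours. The gate differences were -0.79 ± 0.24 in Flt3L Panc02 tumours and -0.87 ± 0.24 in Panc02 tumours, neither called alone (adjusted p = 0.061 and 0.168), while their mean was (-0.83 ± 0.17, adjusted p = 0.0129). The difference in Flt3L Panc02 tumours was called in 8 of 17 alternatives, among them the DESeq2 test (adjusted p = 0.0156) and limma-voom (adjusted p = 0.0151), and that in Panc02 tumours in 2 of 18, the same DESeq2 test (adjusted p = 0.023) and limma-voom (adjusted p = 0.0274). The call of the mean ended without both Panc02 libraries numbered 1 (adjusted p = 0.0679), and without asGM1-negative replicate 1 the difference within Flt3L Panc02 tumours was called (adjusted p = 0.0196). Between tumour types Bach2 differed by 0.75 ± 0.24 among asGM1-positive and 0.68 ± 0.24 among asGM1-negative cells (adjusted p = 0.0812 and 0.133), and these were called without Panc02 asGM1-positive replicate 3 (adjusted p = 0.0436) and without Flt3L Panc02 asGM1-negative replicate 1 (adjusted p = 0.0437).

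Bcl6, the repressor that is paired with Prdm1 in the choice between memory and effector fates, was the least abundant of the 10. Its level was 2.87, 6.91 and 4.98 CPM in asGM1-positive cells of Flt3L Panc02 tumours, against 3.04, 10.5 and 8.37 CPM in their asGM1-negative cells. Libraries of Panc02 tumours had 3.73, 2.86 and 2.002 CPM in asGM1-positive cells, against 4.96, 4.09 and 3.24 CPM in asGM1-negative cells. The gates overlapped in both tumour types, and replicate 1 was the lowest library of both gates in Flt3L Panc02 tumours. Between libraries of the same number Bcl6 was lower in asGM1-positive cells in 3 of 3 pairs of each tumour type, and with a block for the number within each tumour type it was not called (adjusted p = 0.145 in Flt3L Panc02 and 0.278 in Panc02 tumours). Foxp1 in Panc02 and Bach2 in Flt3L Panc02 tumours, whose gates overlapped too, were also lower in each such pair. Klf3 and Myb in Panc02 tumours were not. The share of all genes lower in each pair was not computed. The gate difference was -0.57 ± 0.43 in Flt3L Panc02 tumours and -0.52 ± 0.43 in Panc02 tumours, with 95% intervals of -1.52 to 0.37 and of -1.47 to 0.43 (adjusted p = 0.446 and 0.81). Between tumour types Bcl6 differed by 0.78 ± 0.44 among asGM1-positive and 0.84 ± 0.43 among asGM1-negative cells (adjusted p = 0.3 and 0.312). Bcl6 passed the threshold in none of the 6 comparisons with edgeR.

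Foxo1 encodes the forkhead factor that turns on Klf2 and Il7r. Its level was 83.5, 92.3 and 70.0 CPM in asGM1-positive cells of Flt3L Panc02 tumours, against 116, 161 and 133 CPM in their asGM1-negative cells. Libraries of Panc02 tumours had 63.1, 71.7 and 85.8 CPM in asGM1-positive cells, against 103, 92.5 and 93.4 CPM in asGM1-negative cells. The gates did not overlap in either tumour type. Foxo1 was 1.67-fold lower in asGM1-positive cells of Flt3L Panc02 tumours (-0.74 ± 0.15, adjusted p = 0.0125), a call that ended without asGM1-positive replicate 3 and without asGM1-negative replicate 2 (adjusted p = 0.0539 to 0.0555). In Panc02 tumours the gate difference was -0.39 ± 0.15 (adjusted p = 0.389). Between tumour types it was 0.16 ± 0.15 among asGM1-positive and 0.51 ± 0.15 among asGM1-negative cells (adjusted p = 0.57 and 0.0836), and the second was called without Flt3L Panc02 asGM1-negative replicate 1 (adjusted p = 0.0476).

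Foxp1 encodes a forkhead factor that keeps naive T cells quiescent. Its level was 86.0, 103 and 73.8 CPM in asGM1-positive cells of Flt3L Panc02 tumours, against 118, 151 and 122 CPM in their asGM1-negative cells. In Panc02 tumours it was 80.8, 64.8 and 75.8 CPM in asGM1-positive cells, against 82.8, 78.1 and 79.2 CPM in asGM1-negative cells. The gates overlapped in Panc02 tumours and did not in Flt3L Panc02 tumours. Foxp1 was 1.49-fold lower in asGM1-positive cells of Flt3L Panc02 tumours (-0.57 ± 0.14, adjusted p = 0.0283), and the call ended without asGM1-positive replicate 1 or 3 and without asGM1-negative replicate 2 or 3 (adjusted p = 0.0531 to 0.112). In Panc02 tumours the difference was -0.12 ± 0.14, with a 95% interval of -0.42 to 0.19 (adjusted p = 0.9), and 0.03 with libraries scaled to T cell transcripts, which shifts the median of all genes by 0.145. Among asGM1-negative cells Foxp1 was 1.63-fold higher in Flt3L Panc02 tumours (0.70 ± 0.14, adjusted p = 0.023), and that call ended in 5 of 6 runs, all except the one without Flt3L Panc02 replicate 1 (adjusted p = 0.0513 to 0.104). Among asGM1-positive cells the difference was 0.25 ± 0.14 (adjusted p = 0.305).

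Satb1 encodes a chromatin organiser of thymocytes and T cells. Its level was 111, 91.1 and 65.9 CPM in asGM1-positive cells of Flt3L Panc02 tumours, against 168, 191 and 139 CPM in their asGM1-negative cells. Libraries of Panc02 tumours had 67.1, 80.7 and 104 CPM in asGM1-positive cells, against 109, 132 and 134 CPM in asGM1-negative cells. The gates did not overlap in either tumour type. Satb1 was 1.86-fold lower in asGM1-positive cells of Flt3L Panc02 tumours (-0.89 ± 0.21, adjusted p = 0.0225), and the call ended without asGM1-positive replicate 2 or 3 and without asGM1-negative replicate 2 (adjusted p = 0.063 to 0.089). In Panc02 tumours Satb1 differed by -0.57 ± 0.21 (adjusted p = 0.336). Between tumour types the difference was 0.09 ± 0.21 among asGM1-positive and 0.41 ± 0.21 among asGM1-negative cells (adjusted p = 0.833 and 0.292).

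Myb encodes a factor of progenitor cells that is needed by stem-like CD8+ T cells in chronic infection of mice. Its level was 8.82, 6.22 and 5.13 CPM in asGM1-positive cells of Flt3L Panc02 tumours, against 12.04, 13.2 and 10.99 CPM in their asGM1-negative cells. In Panc02 tumours it was 10.6, 9.64 and 7.14 CPM in asGM1-positive cells, against 9.95, 7.56 and 7.62 CPM in asGM1-negative cells. The gates did not overlap in Flt3L Panc02 tumours and overlapped in Panc02 tumours, where Myb alone of the 10 had a positive gate difference (0.13 ± 0.22, 95% interval -0.36 to 0.61, adjusted p = 0.952). It was 1.79-fold lower in asGM1-positive cells of Flt3L Panc02 tumours (-0.84 ± 0.22, adjusted p = 0.0386), and the call ended in 5 of 6 runs, all except the one without asGM1-positive replicate 1 (adjusted p = 0.0629 to 0.127). Between tumour types Myb differed by -0.44 ± 0.22 among asGM1-positive and 0.53 ± 0.22 among asGM1-negative cells (adjusted p = 0.248 and 0.208), and with libraries scaled to T cell transcripts the first was called (-0.93, adjusted p = 0.0433), as 30.2% of all genes were called lower there, with a shift of the median of all genes of -0.50.

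Klf3 encodes a Krüppel-like repressor that is itself known as a target of other KLF proteins. Its level was 11.4, 12.3 and 12.6 CPM in asGM1-positive cells of Flt3L Panc02 tumours, against 40.1, 49.9 and 38.2 CPM in their asGM1-negative cells. Libraries of Panc02 tumours had 19.8, 11.1 and 4.97 CPM in asGM1-positive cells, against 18.1, 15.2 and 13.3 CPM in asGM1-negative cells. The gates stood far apart in Flt3L Panc02 tumours and overlapped in Panc02 tumours, where the asGM1-positive libraries held both the lowest and the highest value. Klf3 was 3.54-fold lower in asGM1-positive cells of Flt3L Panc02 tumours (-1.82 ± 0.36, adjusted p = 0.0116) and differed by -0.38 ± 0.35 in Panc02 tumours (adjusted p = 0.843). Among asGM1-negative cells it was 2.75-fold higher in Flt3L Panc02 tumours (1.46 ± 0.36, adjusted p = 0.0477), a call that ended in each of the 6 runs without 1 library (adjusted p = 0.0617 to 0.159). Among asGM1-positive cells it differed by 0.01 ± 0.35 (adjusted p = 0.99).

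**Figure D2:**
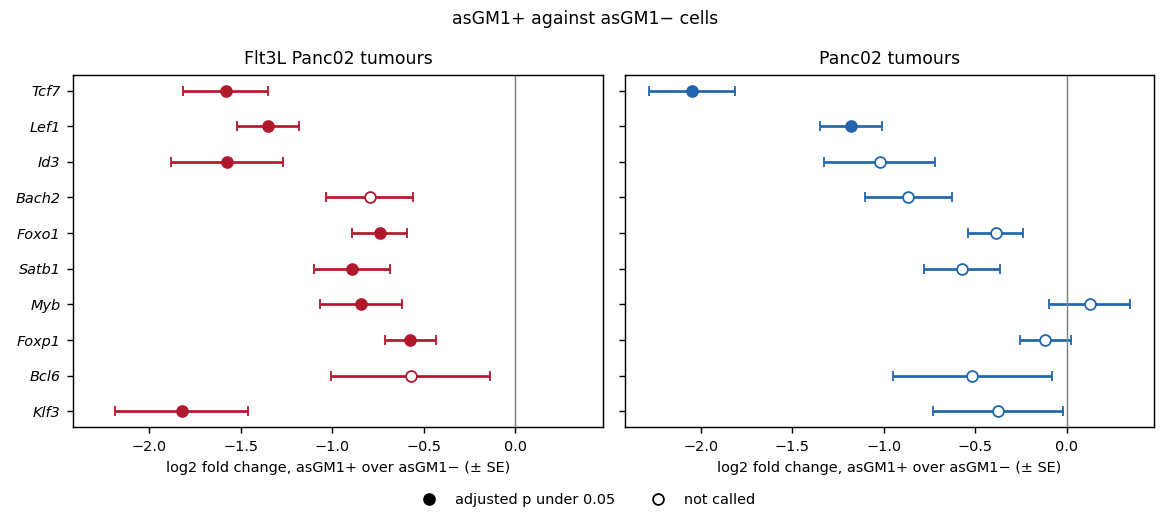
Log2 fold change of the 10 factors, asGM1-positive over asGM1-negative cells (horizontal axes, bars are ± SE), in Flt3L Panc02 tumours on the left and Panc02 tumours on the right, with filled points for an adjusted p under 0.05. All 10 points lie below 0 on the left, with Klf3 lowest at -1.82, and 9 of 10 on the right, with Tcf7 lowest at -2.05 and Foxp1 at -0.12, which is 0.03 when libraries are scaled to T cell transcripts, a scaling that shifts the median of all genes by 0.145 there.

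Read across the genes, the gate differences in Flt3L Panc02 tumours ran from -1.82 for Klf3 to -0.57 for Bcl6, with a median of -0.87 against -0.01 over all genes tested. In Panc02 tumours they ran from -2.05 for Tcf7 to 0.13 for Myb, with a median of -0.54 against 0.02 over all genes. The mean of both gate differences was called lower for 7 of the 10 (Tcf7, Lef1, Id3, Bach2, Foxo1, Satb1 and Klf3), where 4.51% of all genes were called lower, 1.68% higher and 6.19% in either direction. The call of Klf3 in the mean ended without Flt3L Panc02 asGM1-positive replicate 1 or 2, Flt3L Panc02 asGM1-negative replicate 2, Panc02 asGM1-positive replicate 2, or Panc02 asGM1-negative replicate 1 or 2 (adjusted p = 0.0517 to 0.0673). Foxp1, not called in the mean, was called there without Flt3L Panc02 asGM1-positive replicate 2 and without Flt3L Panc02 asGM1-negative replicate 1 (adjusted p = 0.0341 to 0.0464).

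Whether the gate difference itself differed between tumour types was tested as an interaction, and 0 of the 10 passed, where 0.333% of all genes did below 0, 0.0343% above 0 and 0.367% in either direction. At an unadjusted p under 0.05 there were 3 of the 10 (Myb, Foxp1 and Klf3), against 14.8% of all genes. DESeq2 called 0 of the 10 and 862 genes in all, and limma-voom called 1 of the 10, Myb (adjusted p = 0.0476), and 786 genes in all. The interaction, the gate difference in Flt3L Panc02 minus that in Panc02 tumours, was -1.45 ± 0.50 for Klf3, -0.97 ± 0.31 for Myb and -0.46 ± 0.20 for Foxp1 (adjusted p = 0.22, 0.195 and 0.31). Without Panc02 asGM1-positive replicate 3, the library lowest in Klf3, the interaction of Klf3 was called (adjusted p = 0.0199). For Tcf7 and Lef1 it was 0.47 ± 0.32 and -0.17 ± 0.24, with 95% intervals of -0.24 to 1.17 and of -0.69 to 0.35.

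**Figure D3:**
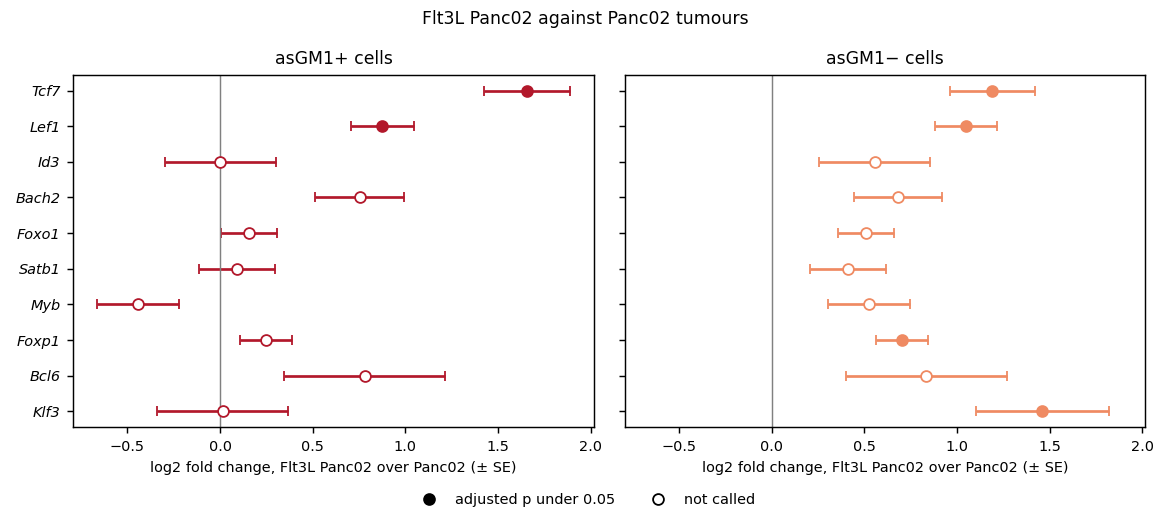
Log2 fold change of the 10 factors, Flt3L Panc02 over Panc02 tumours (horizontal axes, bars are ± SE), in asGM1-positive cells on the left and asGM1-negative cells on the right, with filled points for an adjusted p under 0.05. Tcf7 and Lef1 are filled in both panels. In asGM1-negative cells all 10 points lie above 0, and in asGM1-positive cells Myb lies below 0, joined by Id3, Foxo1, Satb1, Foxp1 and Klf3 when libraries are scaled to T cell transcripts, which shifts the median of all genes by -0.50.

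Between tumour types, the factors were higher in Flt3L Panc02 tumours where they were called. Among asGM1-positive cells 2 of the 10 were called higher (Tcf7 and Lef1) and 0 lower, where 2.05% of all genes were called higher, 4.2% lower and 6.25% in either direction. Among asGM1-negative cells 4 of the 10 were called higher (Tcf7, Lef1, Foxp1 and Klf3) and 0 lower, where 1.86% of all genes were called higher, 1.84% lower and 3.7% in either direction. The median difference was 0.20 among asGM1-positive cells and 0.69 among asGM1-negative cells, against -0.03 and 0.00 over all genes. With libraries scaled to the summed counts of 14 T cell identity genes, the median among asGM1-positive cells was -0.28 and that of all genes -0.53. This scaling moved the genes together, with a shift of the median of all genes of -0.50 in that comparison, so it sets the sign of small differences and does not bear on the gap to all genes. These comparisons share their libraries with those between the gates, so the 2 sets of values are not independent of each other.

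Most of the calls between tumour types depended on single libraries. Among asGM1-negative cells, that of Tcf7 ended without replicate 2 or 3 of either tumour type (adjusted p = 0.0595 to 0.0926) and under T cell scaling (adjusted p = 0.0673), and that of Lef1 ended without Flt3L Panc02 replicate 2 (adjusted p = 0.0536). Among asGM1-positive cells, the call of Lef1 ended without Panc02 replicate 1 or 2 and without Flt3L Panc02 replicate 2 (adjusted p = 0.068 to 0.071) and under T cell scaling (adjusted p = 0.117). The call of Tcf7 there held in each of the 6 runs without 1 library and ended when the 6 compared libraries were fitted alone (adjusted p = 0.0507). That fit called 1 gene in all, against 1276 in the main fit. Nearly all calls between tumour types in asGM1-positive cells, also beyond the 10 factors, thus depend on the shared fit of all 12 libraries.

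Of 13 genes that FOXO1 is known to switch on in T cells, 8 were called lower and 0 higher in asGM1-positive cells of Flt3L Panc02 tumours (median -1.04 against -0.01 over all genes), and 5 lower and 0 higher in those of Panc02 tumours (median -0.71 against 0.02). Over all genes, 5.83% were called lower and 2.77% higher between the gates of Flt3L Panc02 tumours. Between those of Panc02 tumours the shares were 0.843% and 0.049%. The lists of the following paragraphs stand beside the same shares. S1pr1, the receptor for leaving tissue, was at 17.9, 18.1 and 12.05 CPM in asGM1-positive cells of Flt3L Panc02 tumours, against 69.8, 114 and 92.3 CPM in their asGM1-negative cells. In Panc02 tumours S1pr1 was at 6.28, 4.64 and 5.24 CPM in asGM1-positive cells, against 41.7, 32.4 and 32.3 CPM in asGM1-negative cells. Its gate difference was -2.52 ± 0.22 in Flt3L Panc02 tumours and -2.72 ± 0.22 in Panc02 tumours (adjusted p = 0.000103 and 0.000223).

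Klf2, the factor that maintains S1pr1, differed by -2.10 ± 0.28 in Flt3L Panc02 and -1.75 ± 0.28 in Panc02 tumours (adjusted p = 0.00126 and 0.0102), and the second of these calls ended without Panc02 asGM1-positive replicate 2 (adjusted p = 0.0566). Ccr7, the chemokine receptor of lymph node entry, differed by -1.30 ± 0.21 and -1.85 ± 0.21 in the same 2 comparisons (adjusted p = 0.00327 and 0.00137). Il7r, the receptor of the survival cytokine IL-7, was called lower in Flt3L Panc02 tumours (-1.47 ± 0.17, adjusted p = 0.000669) and not in Panc02 tumours (-0.73 ± 0.17, adjusted p = 0.0873). Between tumour types 5 of the 13 FOXO1 targets were called higher in Flt3L Panc02 tumours and 0 lower in each gate. Over all genes 2.05% were called higher among asGM1-positive and 1.86% among asGM1-negative cells. The called targets included S1pr1 (1.57 ± 0.22 in asGM1-positive and 1.38 ± 0.21 in asGM1-negative cells) and Klf2 (1.39 ± 0.27 and 1.75 ± 0.27). In asGM1-negative cells both calls ended without Panc02 replicate 2 (adjusted p = 0.0537 for S1pr1 and 0.0521 for Klf2).

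Of 14 genes for partners of TCF1 and LEF1 (catenins, Groucho co-repressors, other TCF proteins and regulators of beta-catenin), 0 were called between the gates of Panc02 tumours, and 3 lower and 0 higher in asGM1-positive cells of Flt3L Panc02 tumours. Those 3 were Apc, a scaffold for beta-catenin destruction (-0.75 ± 0.13, adjusted p = 0.00579), the TCF gene Tcf7l2 (-2.36 ± 0.49, adjusted p = 0.014) and the co-repressor gene Tle2 (-1.11 ± 0.29, adjusted p = 0.0362). Without asGM1-positive replicate 3 the call of Tcf7l2 ended (adjusted p = 0.0592), and that of Tle2 ended in 5 of 6 runs, all except the one without asGM1-negative replicate 1 (adjusted p = 0.0643 to 0.117). Ctnnb1, which encodes beta-catenin itself, differed by 0.07 ± 0.14 in Flt3L Panc02 tumours and by 0.06 ± 0.14 in Panc02 tumours. Axin2, a usual reporter of beta-catenin signalling, was at most 1.73 CPM in any library and was called higher in Flt3L Panc02 tumours among asGM1-negative cells (1.44 ± 0.31, adjusted p = 0.0286), a call that ended in 5 of 6 runs, all except the one without Flt3L Panc02 replicate 1 (adjusted p = 0.0511 to 0.124). Among asGM1-positive cells 3 of the 14 were called lower in Flt3L Panc02 tumours and 0 higher, in the opposite direction to Tcf7 and Lef1. They were Tle2 (-1.86 ± 0.29, adjusted p = 0.00771), Tcf7l2 (-2.95 ± 0.50, adjusted p = 0.00971) and Apc (-0.51 ± 0.13, adjusted p = 0.0431). The call of Tcf7l2 ended without Flt3L Panc02 replicate 2 or 3 (adjusted p = 0.0507 to 0.0549), that of Apc in 5 of 6 runs, all except the one without Flt3L Panc02 replicate 1 (adjusted p = 0.0564 to 0.158), and that of Tle2 when the 6 compared libraries were fitted alone (adjusted p = 0.0539). Between tumour types in asGM1-positive cells, 5 of 14 macrophage genes were called lower and 0 higher. Of 9 tested tumour epithelium and fibroblast genes 3 were called lower and 1 higher, and of 14 T cell identity genes 5 higher and 0 lower. Over all genes 4.2% were called lower and 2.05% higher. The 10 epithelium and fibroblast genes summed to 54.7 to 90.8 CPM in Flt3L Panc02 and 109 to 272 CPM in Panc02 tumours. The part of other cells in these calls was not tested.

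Among 5 E protein and Id genes, Tcf4 (-3.45 ± 0.40, adjusted p = 0.000627) and Tcf12 (-0.57 ± 0.15, adjusted p = 0.0407) were called lower and Id2, the Id gene of effector cells, higher (0.72 ± 0.20, adjusted p = 0.0498) in asGM1-positive cells of Flt3L Panc02 tumours. The calls of Tcf12 and Id2 ended in 5 of 6 runs each, all except the one without asGM1-negative replicate 1 (adjusted p = 0.0598 to 0.144 and 0.0816 to 0.167), and 0 of the 5 were called between the gates of Panc02 tumours. Tcf4 is also a defining factor of plasmacytoid dendritic cells, whose transcripts are given below. Of 8 BACH2 and BCL6 partners, 1 was called in any of the gate comparisons, the co-repressor gene Ncor1, lower in asGM1-positive cells of Flt3L Panc02 tumours (-0.45 ± 0.12, adjusted p = 0.0337), and the call ended without asGM1-positive replicate 2 or 3 and without asGM1-negative replicate 1 or 2 (adjusted p = 0.0644 to 0.105). A single call among 8 genes is near the share of all genes called lower there, 5.83%.

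Of 13 paralogs of the factors 12 were tested. In asGM1-positive cells of Flt3L Panc02 tumours Mybl2, the MYB relative of dividing cells, was called higher (0.94 ± 0.15, adjusted p = 0.00351; 0.073 with T cell scaling, which ends the call), while Foxo3, Klf7 and Klf4 were called lower (-0.65 ± 0.16, -0.57 ± 0.16 and -1.03 ± 0.29, adjusted p = 0.0292, 0.044 and 0.0461). The call of Klf7 ended in each of the 6 runs without 1 library, and those of Foxo3 and Klf4 in 5 of 6, all except the one without asGM1-negative replicate 1 (adjusted p = 0.0503 to 0.147, 0.0588 to 0.0924 and 0.0779 to 0.164). Between the gates of Panc02 tumours 0 of the 12 were called.

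Of 14 other genes of stem-like and memory cells, 6 were called lower and 0 higher in asGM1-positive cells of Flt3L Panc02 tumours (median -0.63), and 4 lower and 0 higher in those of Panc02 tumours (median -0.51). Slamf6, a surface marker used to sort stem-like cells, differed by -1.14 ± 0.22 in Flt3L Panc02 and by -1.35 ± 0.22 in Panc02 tumours (adjusted p = 0.00954 and 0.0122), and the second call ended without Panc02 asGM1-positive replicate 2 and without asGM1-negative replicate 3 (adjusted p = 0.0545 to 0.0763). Nsg2, a gene of naive T cells, differed by -1.30 ± 0.25 and by -1.95 ± 0.26 (adjusted p = 0.0101 and 0.00381). Of 15 effector and exhaustion factors 0 were called between the gates of Panc02 tumours. In asGM1-positive cells of Flt3L Panc02 tumours Tbx21, which encodes T-bet, was called higher (0.78 ± 0.13, adjusted p = 0.00395) and Ikzf2, which encodes Helios, lower (-1.42 ± 0.17, adjusted p = 0.000732). With T cell scaling the call of Tbx21 ended (0.40, adjusted p = 0.0751). Calls of 1 higher and 1 lower among 15 genes are near the shares of all genes there, 2.77% higher and 5.83% lower. Prdm1, which encodes BLIMP1, differed by 0.76 ± 0.23 in Flt3L Panc02 tumours and by 0.14 ± 0.23 in Panc02 tumours (adjusted p = 0.0667 and 0.946).

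**Figure D4:**
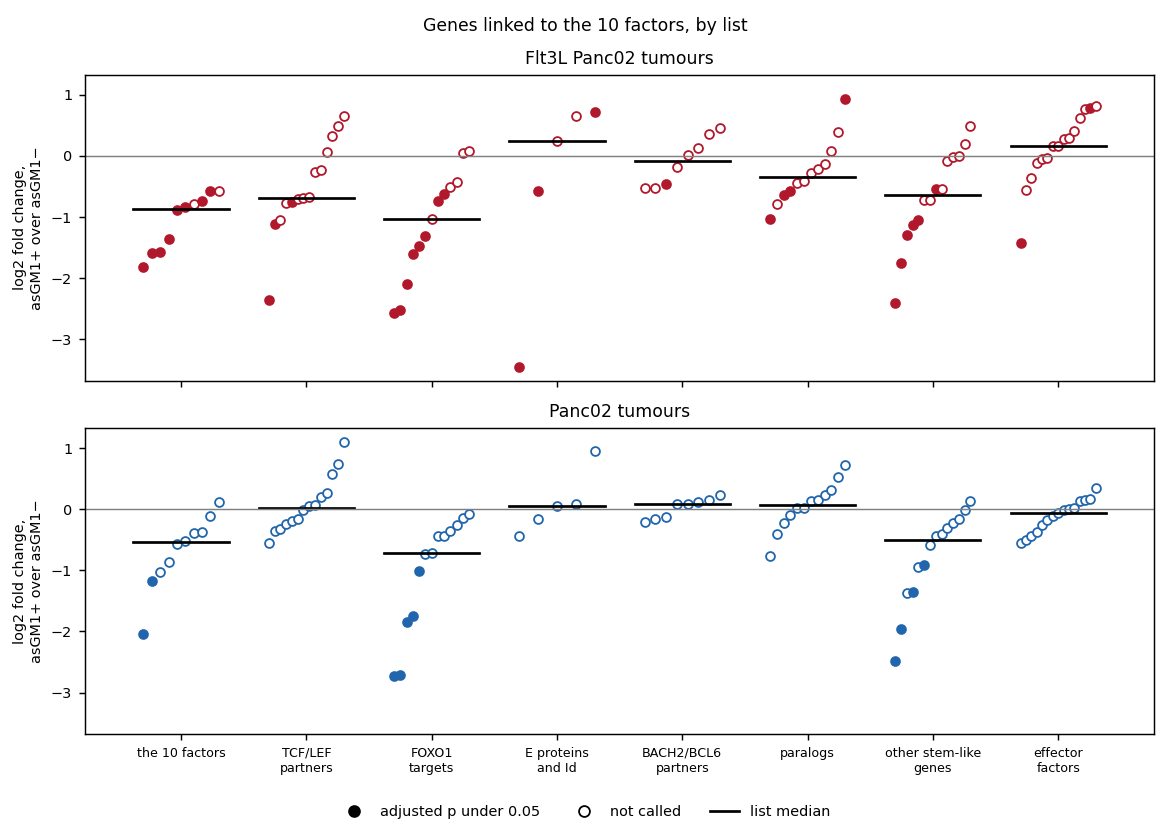
Log2 fold change of each gene, asGM1-positive over asGM1-negative cells (vertical axes), in Flt3L Panc02 tumours (top) and Panc02 tumours (bottom), for the 10 factors and 7 lists of linked genes, with filled points for an adjusted p under 0.05 and a line for the list median. The medians of the 10 factors, the FOXO1 targets and the other stem-like genes lie below 0 in both panels, at -0.87, -1.04 and -0.63 above and at -0.54, -0.71 and -0.51 below. Below 0 in the upper panel only are those of TCF/LEF partners (-0.69), paralogs (-0.34) and BACH2 and BCL6 partners (-0.08). The median of the effector factors is below 0 in the lower panel only (-0.06), and that of E protein and Id genes in neither.

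The gates also differed in transcripts that mark cells other than CD8+ T cells. Of 15 plasmacytoid dendritic cell genes 12 were called lower in asGM1-positive cells of Flt3L Panc02 tumours and 10 lower in those of Panc02 tumours, with 0 higher in either. Their summed level was 351 to 379 CPM in asGM1-positive cells of Flt3L Panc02 tumours, against 1482 to 1652 CPM in their asGM1-negative cells. In Panc02 tumours it was 328 to 407 CPM in asGM1-positive cells, against 582 to 657 CPM in asGM1-negative cells. The defining marker Siglech was near 0 in asGM1-positive cells, at 1.60 to 4.56 CPM in Flt3L Panc02 and 0.0901 to 3.10 CPM in Panc02 tumours, against 253 to 290 CPM and 40.4 to 70.1 CPM in the asGM1-negative cells of the same tumours. The part of plasmacytoid dendritic cells in the gate and tumour type differences of the 10 factors was not tested.

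Cd4 was at 4.43 to 4.98 CPM in asGM1-positive cells of Flt3L Panc02 tumours, against 23.0 to 32.2 CPM in their asGM1-negative cells, and in Panc02 tumours at 2.78 to 3.25 CPM in asGM1-positive against 6.06 to 8.37 CPM in asGM1-negative cells. The regulatory T cell factor gene Foxp3 was at 9.28 to 11.1 CPM in asGM1-positive cells of Flt3L Panc02 tumours, against 18.2 to 35.0 CPM in their asGM1-negative cells, and in Panc02 tumours at 5.29 to 11.6 CPM in asGM1-positive against 48.5 to 72.7 CPM in asGM1-negative cells. Of the 10 CD4 and regulatory T cell genes 3 were called lower in asGM1-positive cells of each tumour type, with 1 higher in Flt3L Panc02 and 0 in Panc02 tumours. Their summed level was 2939 to 3822 CPM in asGM1-positive and 2112 to 3040 CPM in asGM1-negative cells of Flt3L Panc02 tumours, and 2764 to 3336 CPM in asGM1-positive and 3384 to 4605 CPM in asGM1-negative cells of Panc02 tumours. Cd4 and Foxp3, at most 32.2 and 72.7 CPM, were a small part of these sums. The rest came from other genes of the list, so the sums do not measure the content of CD4+ or regulatory T cells. Of 8 genes of gamma delta and other innate-like T cells in the table, 5 were called lower in asGM1-positive cells of Flt3L Panc02 tumours and 4 in those of Panc02 tumours, with 0 higher. These 8 summed to 98.6 to 117 CPM in asGM1-positive and 152 to 248 CPM in asGM1-negative cells of Flt3L Panc02 tumours, and to 130 to 152 CPM in asGM1-positive and 101 to 126 CPM in asGM1-negative cells of Panc02 tumours. TCF1, LEF1 and FOXO1 are also made by CD4+ T cells, and the part of these transcripts in the gate differences was not tested.

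Genes of conventional dendritic cells summed to 23.4 to 35.7 CPM in asGM1-positive cells of Flt3L Panc02 tumours against 123 to 138 CPM in asGM1-negative cells, and to 23.2 to 60.5 CPM in asGM1-positive against 49.3 to 76.8 CPM in asGM1-negative cells of Panc02 tumours. Of 11 tested, 6 were called lower in asGM1-positive cells of Flt3L Panc02 and 1 in those of Panc02 tumours, with 0 higher, and their part in the result was not tested. B cells make Bach2, Bcl6 and Foxp1. A list of 12 B cell genes summed to 21.9 to 27.9 CPM in asGM1-positive and 66.0 to 80.1 CPM in asGM1-negative cells of Flt3L Panc02 tumours, and to 13.6 to 26.5 CPM in asGM1-positive and 26.1 to 36.0 CPM in asGM1-negative cells of Panc02 tumours. Of the 6 that were tested, 2 were called lower in asGM1-positive cells of Flt3L Panc02 and 1 in those of Panc02 tumours, with 0 higher, while the defining genes Cd79a, Ms4a1 and Pax5 were at or near 0, at most 0.436 CPM in any of the 12 libraries.

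Genes of natural killer cells, many of which effector CD8+ T cells also express, had a higher sum in asGM1-positive cells of Flt3L Panc02 tumours. The 10 genes summed to 5508 to 7209 CPM in asGM1-positive and 3095 to 4351 CPM in asGM1-negative cells there, with 2 called higher and 1 lower. In Panc02 tumours they summed to 3553 to 4781 CPM in asGM1-positive and 3183 to 4842 CPM in asGM1-negative cells, with 0 called, and their part in the results was not tested.

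Macrophage transcripts differed within a group. Their 14 genes summed to 3299, 1741 and 907 CPM in asGM1-positive replicates 1, 2 and 3 of Panc02 tumours, against 1299, 989 and 788 CPM in asGM1-negative replicates 1, 2 and 3. The same asGM1-positive libraries held 20.7, 10.3 and 7.63 CPM of Id3 and 19.8, 11.1 and 4.97 CPM of Klf3, in the same order of libraries. Myb (10.6, 9.64 and 7.14 CPM) and Bcl6 (3.73, 2.86 and 2.002 CPM) fell in that order too. Lef1 (12.5, 13.6 and 17.5 CPM), Foxo1 (63.1, 71.7 and 85.8 CPM) and Satb1 (67.1, 80.7 and 104 CPM) rose instead. Tcf7, Bach2 and Foxp1 were lowest in replicate 2. In Flt3L Panc02 tumours the sum was 697 to 949 CPM in asGM1-positive cells against 386 to 624 CPM in asGM1-negative cells. There the gate differences of all 10 factors, Id3 and Klf3 among them, were below 0. Of the 14 genes 0 were called between the gates of Panc02 tumours, and 1 higher and 1 lower in asGM1-positive cells of Flt3L Panc02 tumours. Their part in the values of the factors was not tested beyond leaving out single libraries.

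The 14 T cell identity genes summed to 14209 to 17942 CPM in asGM1-positive cells of Flt3L Panc02 tumours, against 11333 to 12658 CPM in their asGM1-negative cells. In Panc02 tumours the sum was 10380 to 12512 CPM in asGM1-positive cells, against 10950 to 13787 CPM in asGM1-negative cells. Per 1000 counts of these genes, Tcf7 had 3.83 to 6.18 counts in asGM1-positive cells of Flt3L Panc02 tumours, against 13.1 to 24.7 in their asGM1-negative cells. In Panc02 tumours Tcf7 had 1.83 to 2.62 in asGM1-positive cells, against 5.88 to 10.7 in asGM1-negative cells, so its gates did not overlap on this scale either. With libraries scaled this way Tcf7 and Lef1 were still called between the gates of Panc02 tumours (adjusted p = 0.0127 and 0.0331). The median of all genes shifted by 0.145 under this scaling, and the gate difference of Foxp1 moved with it to 0.03.

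**Figure D5:**
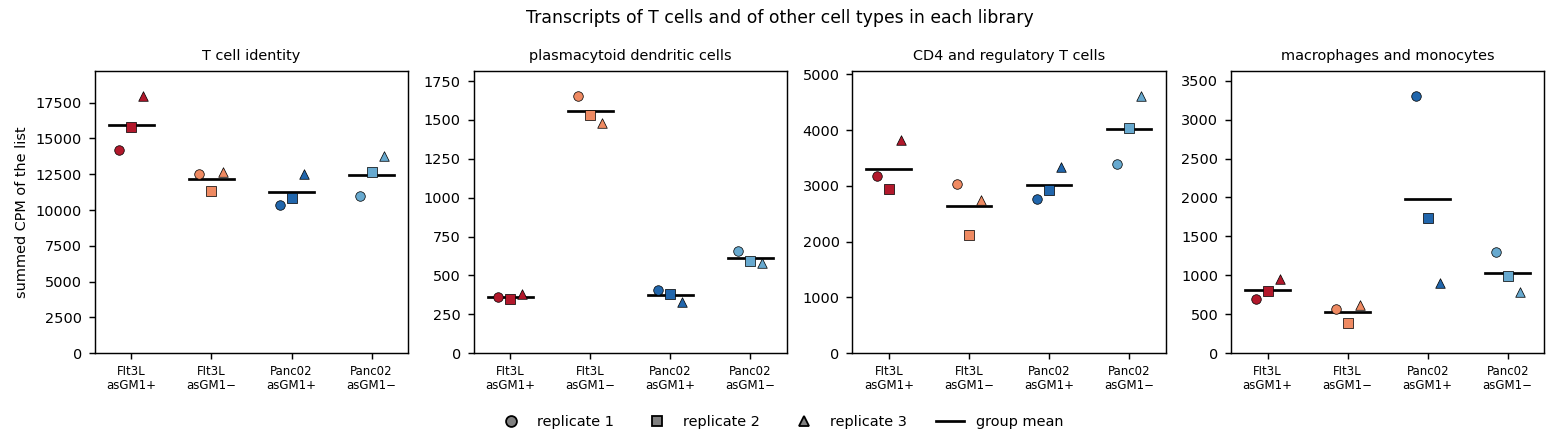
Summed CPM (vertical axes, linear, from 0) of 4 lists of cell type genes in the 12 libraries, with symbols for the replicates and a bar for the group mean. Plasmacytoid dendritic cell genes reach 1482 to 1652 CPM in asGM1-negative cells of Flt3L Panc02 tumours, and macrophage genes spread from 907 to 3299 CPM over the asGM1-positive libraries of Panc02 tumours.

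To compare the genes with each other, levels were divided by the length of their exons in GENCODE M21 (CPM per kb). On this scale Tcf7 had the highest mean of the 10 in every group, with 28.7 ± 7.5 in asGM1-positive and 85.8 ± 22.0 in asGM1-negative cells of Flt3L Panc02 tumours, and 9.10 ± 1.42 and 37.6 ± 6.8 in asGM1-positive and asGM1-negative cells of Panc02 tumours (SD, n = 3 each). Foxo1 stood second in asGM1-positive cells, at 9.45 ± 1.30 in Flt3L Panc02 and 8.49 ± 1.32 in Panc02 tumours, and Id3 second in asGM1-negative cells, at 21.5 ± 4.9 and 14.6 ± 0.7. In asGM1-positive cells of Panc02 tumours Tcf7, Foxo1 and Id3 (7.19 ± 3.86) lay within their spread of each other. Bcl6 had the lowest mean in each group, at 0.734 ± 0.301 and 1.09 ± 0.58 in asGM1-positive and asGM1-negative cells of Flt3L Panc02 tumours, and 0.428 ± 0.129 and 0.611 ± 0.129 in those of Panc02 tumours. In asGM1-positive cells of Flt3L Panc02 tumours Bcl6 and Myb (0.753 ± 0.212) did not differ beyond their spread. The exon lengths combine all annotated transcripts, so they set only an approximate order.

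Across the 12 libraries, log2 CPM of the 45 pairs of factors correlated with Pearson coefficients between 0.21 (Myb with Bcl6) and 0.95 (Tcf7 with Bach2), with a median of 0.73. These libraries fall into 4 groups, so the coefficients mainly describe the group means. With group means removed, 32 of the 45 coefficients were above 0. Lef1 with Satb1 and Bach2 with Foxo1 had 0.88, Tcf7 with Bcl6 0.84, and Id3 with Klf3 0.83, while Id3 with Foxo1 had -0.69 and Tcf7 with Lef1 0.02.

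The 3 genes with the pattern most like each factor over the 12 libraries were sought by Pearson correlation of log2 CPM among 9616 genes of at least 5 CPM on average. For Tcf7 they were Nsg2, Klf2 and Ccr7 (0.99, 0.98 and 0.98), all from the lists above. For Lef1 they were Cmah, Fam241a and Tnfrsf26 (0.98, 0.97 and 0.97), for Id3 Ramp1, Bmyc and Tgtp2 (0.98, 0.97 and 0.95), and for Bach2 Sidt1, Ripor2 and Arhgap26 (0.99, 0.98 and 0.97). Arhgap26 was also among the 3 of Foxo1, with Fam234b and Dnajc7 (0.98 for Fam234b, 0.95 for the other two). The 3 of Foxp1 were Mlxip, Akap8l and Tmem131l (0.96 each), and those of Klf3 Rere, As3mt and Adk (0.98, 0.97 and 0.96). For Myb they were Zfp692, Kif1b and Fes (0.97, 0.96 and 0.95), for Bcl6 Iffo1, Epc1 and Pcmtd2 (0.96, 0.96 and 0.95), and for Satb1 Smox, Tmem64 and Zfp292 (0.93, 0.91 and 0.91), the lowest of the 10 sets.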

How the data were processed

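Bulk RNA-seq of sorted CD8+ T cells was analysed in 12 libraries, 3 in each of 4 groups named by the sample titles. The deposited values are estimated counts (expected_counts) per gene, whole numbers already, so that rounding had no effect. Per the submitters' processing notes the authors used HISAT2, StringTie and mm39. No source used here gives versions, order or gene annotation. The labels' protocols name TRIzol and 2 library kits, SMARTer Ultra low input and TruSeq mRNA, without a word on strand, so reads of a gene and of an overlapping or antisense neighbour may be mixed. From the steps among small values, 1 fragment was estimated at 2.71 counts (2.67 to 2.75 did equally well), and a count of 0 allows up to 3 fragments, 8.13 counts, per library.

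The filter filterByExpr of edgeR 4.0.16 (R 4.3.3) kept 20411 genes. TMM-scaled counts of all 12 libraries entered a single quasi-likelihood fit with a mean for each of the 4 groups. Benjamini-Hochberg adjustment ran over all genes, and calls were made at 0.05. The SE of a log2 fold change is its unshrunk absolute value over the root of F. Comparisons were the gate within each tumour type and their mean, the tumour type within each gate, and the interaction. The script was tested on simulated data.

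The 10 genes and all gene lists were chosen with earlier results of these data known. All 10 genes are described. From each list up to 4 called genes with the smallest p, or partners of a factor, are named, and for each factor the 3 most similar genes among those averaging 5 CPM or more. Sequences are from RefSeq (GRCm38.p6), where all 10 genes matched, and exon lengths from GENCODE M21.

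Alternatives were scaling by upper quartiles, by DESeq2 1.42.0 size factors or by T cell identity genes, no filter or a stricter one (5 CPM in 3 libraries), limma-voom (limma 3.58.1) with quality weights, the DESeq2 test, the compared libraries only, a replicate block, counts divided by the fragment worth, leaving out each library, and leaving out both Panc02 libraries numbered 1. The nested replicate block was chosen after seeing the data. Between the Panc02 gates, libraries of the same number deviated together (r from 0.27 to 0.33 over 10342 genes). There the nested block took the numbers to pair libraries, from the data. The sample titles carry the numbers without stating a pairing, and the main fit had no term for them.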

Additional observations from a re-analysis of the deposited data

Results flagged for a closer look

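The difference between the gates itself differed between tumour types for 2 genes linked to the factors, chosen for their calls. For Apc, the scaffold for beta-catenin destruction, the interaction was -1.02 ± 0.19 (edgeR adjusted p = 0.0459): it was at 14.0, 13.0 and 10.8 CPM in asGM1-positive cells against 22.2, 22.2 and 19.4 CPM in asGM1-negative cells of Flt3L Panc02 tumours, and at 18.1, 18.9 and 17.0 CPM in asGM1-positive against 15.9, 15.7 and 13.3 CPM in asGM1-negative cells of Panc02 tumours. For Tcf4, an E protein gene that also marks plasmacytoid dendritic cells, it was -3.01 ± 0.53 (edgeR adjusted p = 0.0388), with 6.92, 6.36 and 3.83 CPM in asGM1-positive cells against 70.8, 66.3 and 50.3 CPM in asGM1-negative cells of Flt3L Panc02 tumours, and 20.2, 13.5 and 6.93 CPM in asGM1-positive against 23.9, 19.9 and 11.6 CPM in asGM1-negative cells of Panc02 tumours. Both calls held only in the run without Panc02 asGM1-positive replicate 3 and ended in the 11 others that left out 1 library (adjusted p = 0.0634 to 0.154 for Apc and 0.0552 to 0.123 for Tcf4).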

How the results depend on the processing

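Over 60 pairs of a factor and a comparison, 1150 alternative values were computed, of which 1027 kept their direction and side of the threshold, 54 lost a call, 37 gained one and 32 turned sign, all 32 of values not called. Between the gates of Panc02 tumours the calls of Tcf7 and Lef1 held in all 18 alternatives, and between those of Flt3L Panc02 tumours the calls of Tcf7, Lef1, Id3 and Klf3 in all 17. Below, the order is gate in Panc02, gate in Flt3L Panc02, their mean, tumour type in asGM1-negative, tumour type in asGM1-positive, interaction, leaving out counts within 1.5 times. Calls of the 10 factors were 4 and 5 between the gates of Panc02 tumours with the DESeq2 test and limma-voom. Fitting the compared libraries only gave 5 between the gates of Flt3L Panc02 tumours and 0 for tumour type in asGM1-positive cells. For tumour type in asGM1-negative cells they were 1 with T cell scaling and 8 with limma-voom, and in asGM1-positive cells 4 with limma-voom and 1 without both Panc02 libraries numbered 1. The interaction had 1 with limma-voom. Calls over all genes were 598, 3215, 2342, 2207, 2979 and 862 with the DESeq2 test, and 831, 2805, 2528, 3536, 3120 and 786 with limma-voom. T cell scaling gave 104 and 2825 between the gates, 209 and 6285 between tumour types and 400 for the interaction. It shifted the median of all genes by 0.145, -0.38, -0.12, 0.03, -0.50 and -0.52, and moved the split of higher and lower calls to 87 and 2738 from 565 and 1189 between the gates of Flt3L Panc02 tumours, to 90 and 900 from 343 and 920 in the mean, and to 129 and 6156 from 418 and 858 for tumour type in asGM1-positive cells. No filter gave 390, 691 and 40 for tumour type in asGM1-negative and asGM1-positive cells and the interaction, the stricter filter 137 for the interaction, and the compared libraries only 118, 1094 and 1 (both gates, tumour type in asGM1-positive cells). Without both Panc02 libraries numbered 1 there were 107 (gate in Panc02), 481, 402 and 27 (tumour types and interaction). The replicate block gave 135 and the nested replicate block 204 for the interaction. The nested block called Bach2 between the gates of Flt3L Panc02 tumours (adjusted p = 0.0362) and Foxp1 in the mean (adjusted p = 0.0257), where the numbers were not shown to pair libraries (r from -0.06 to 0.51), and neither block changed another call of the 10 factors. Leaving out 1 library gave 2 to 3, 4 to 8, 6 to 8, 0 to 5, 1 to 3 and 0 to 1 factors, and 94 to 226, 768 to 1942, 809 to 1589, 94 to 959, 215 to 1737 and 1 to 257 genes. Values that turned sign under T cell scaling were Foxp1 between the gates of Panc02 tumours (0.025), Id3, Foxo1, Satb1, Foxp1 and Klf3 for tumour type in asGM1-positive cells (-0.56, -0.32, -0.36, -0.25 and -0.54) and the interaction of Tcf7 and Bach2 (-0.060 and -0.43). With the stricter filter Id3 and Klf3 in asGM1-positive cells turned to -0.042 and -0.031, with limma-voom the interaction of Lef1 to 0.10, and with the nested block that of Bcl6 to 0.055. Without both Panc02 libraries numbered 1, Satb1 in asGM1-positive cells was -0.046, and the interactions of Bach2 and Bcl6 were -0.15 and 0.020. Leaving out 1 library ranged over -0.10 to 0.30 for Satb1, -0.25 to 0.53 for Id3 and -0.34 to 0.59 for Klf3 in asGM1-positive cells, and over -0.14 to 0.28 for Bach2 and -0.42 to 0.30 for Bcl6 in the interaction. The cause of these shifts was not tested, other than fewer libraries or a changed number of genes tested where the alternative makes it so. Counts were lowest for Bcl6, at about 74 fragments in its lowest library. Its level also spread between libraries, from 3.04 to 10.5 CPM in asGM1-negative cells of Flt3L Panc02 tumours.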
